A study of Mus musculus with 20 samples.

Results

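Mest and 9 further imprinted genes that have been described as one co-regulated network (Nnat, Peg3, Igf2, H19, Plagl1, Dlk1, Grb10, Meg3 and Ndn) were followed in the translatome of epididymal adipocytes. The genes were taken by symbol, as 10 of the 46078 rows of the table of gene counts, and all 10 were among the 21464 genes abundant enough to be tested. In the mice on HFD, Mest had the largest rise in both arms among the 8 members with enough counts for a fold change, by 3.41 ± 0.72 and 3.52 ± 0.88 on the log2 scale (± SE) after the shorter and the longer diet. Peg3 also rose after the longer diet, where its mean rested on 1 mouse. The scarcely detected Dlk1 had counts in the HH mice and none in their controls. No member passed the cut-offs in the mice that had lost weight (WL). The cut-offs were those of the study, a nominal p under 0.01 and a change of at least 1 on the log2 scale.

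TRAP–seq reads the mRNA held by tagged ribosomes. The mice were AdipoERCre x NuTRAP animals on a background that the labels spell C576BL6, in which a tamoxifen-inducible Cre under the control of the adiponectin promoter gives adipocytes ribosomes that carry a GFP tag. All 8 groups, controls included, carried both transgenes and received tamoxifen before the diets began, and the ribosomes were pulled down from the lysate of frozen epididymal adipose tissue (epiAT). In the short arm, C mice had chow only and were 18 weeks old, H mice were 18 weeks old after 12 weeks of HFD, CC_s mice had chow only and were 26 weeks old, and HC mice were 26 weeks old after 12 weeks of HFD and 8 weeks of chow, with 3 mice per group. In the long arm, CC_l mice had chow only and were 31 weeks old, HH mice were 31 weeks old after 25 weeks of HFD, CCC mice had chow only and were 39 weeks old, and HHC mice were 39 weeks old after 25 weeks of HFD and 8 weeks of chow, with 2 mice per group. Per the study's methods, the chow of the HFD period (C and CC_l mice) was a low-fat diet. HC and HHC mice and their CC_s and CCC controls were on another, standard chow during the WL period. The labels number the samples as biological replicates, and the sample names of the arms carry different prefixes whose meaning is not given, so comparisons were made between mice of the same arm and age, against chow.

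Imprinted genes are expressed mainly from the copy inherited from a single parent, the other copy being silenced by DNA methylation or linked chromatin marks set in the germ line. Many of them act on growth before and after birth, and several change together in growing tissues, with the zinc-finger protein Plagl1 (also Zac1) known as a regulator of many of the others. In fat, Mest is known for its link with the expansion of fat mass, Dlk1 (also Pref-1) as an inhibitor of adipocyte differentiation, and Igf2 and Grb10 for their places in insulin and IGF signalling. Read counts per gene do not tell the parental copies apart, so nothing here concerns imprinting itself.

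Libraries held between 10710277 and 36738954 counts. The 7 adipocyte markers (Adipoq, Plin1, Cidec and others) were detected in every library and summed to between 11530 and 93519 CPM (the counts of a gene scaled to the total gene counts of its library). In 4 libraries, C replicates 1 and 2, HC replicate 3 and CCC replicate 2, the nuclear-retained RNAs Malat1 and Neat1 summed to 26717 to 42954 CPM, against 2175 to 13764 CPM in the other 16, and the adipocyte sum was 11530 to 20701 CPM against 21927 to 93519 CPM. Markers of other cells also moved with diet. The 8 adipocyte progenitor markers summed to 757 to 2271 CPM in H against 158 to 492 CPM in C, and to 1989 to 2427 CPM in HH against 164 to 208 CPM in CC_l. The 7 macrophage markers summed to 509 to 3215 CPM in H against 111 to 287 CPM in C, and to 3199 to 4035 CPM in HH against 190 to 306 CPM in CC_l. After WL, the macrophage sum was 356 to 1612 CPM in HC against 131 to 161 CPM in CC_s, and 530 to 1415 CPM in HHC against 609 to 830 CPM in CCC. In HHC the progenitor sum was 272 to 507 CPM against 547 to 776 CPM in CCC, and the sum of the 5 endothelial markers 91.4 to 93.1 CPM against 239 to 657 CPM, neither overlapping, and all 6 members that did not overlap there were lower as well. None of these markers was at 0 in any library. The part of these cells and of nuclear RNA in the values below was not tested, and in ribosome pulldowns from a whole depot fewer cells of a type and less RNA per cell cannot be told apart.

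The members spanned a wide range of expression. Expressed per length (RPKM, the CPM divided by the summed exon length in kilobases), the median over the 20 libraries was 426 RPKM for Nnat, 10.5 RPKM for Mest, 9.83 RPKM for Ndn, 6.40 RPKM for Grb10, 4.34 RPKM for Plagl1, 2.58 RPKM for Peg3, 1.30 RPKM for Meg3, 0.665 RPKM for Igf2, 0.0838 RPKM for H19 and 0.0297 RPKM for Dlk1. Nnat stood apart from the others in all libraries, with a lowest value of 52.6 RPKM, above the highest value of every other member except Mest in 1 HH mouse (125 RPKM). The ranges over libraries of Mest (1.62 to 125 RPKM), Ndn (5.09 to 24.3 RPKM), Grb10 (3.35 to 8.55 RPKM) and Plagl1 (1.31 to 10.6 RPKM) overlapped, so their order was not set apart by the spread. With the longest transcript in place of all exons, Grb10 stood at 11.5 RPKM, above Ndn. Mest varied most between mice, its highest value being 77.2 times its lowest, and Grb10 least, with a ratio of 2.55. Dlk1 had no count in 7 libraries and H19 none in 3.

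**Figure D1:**
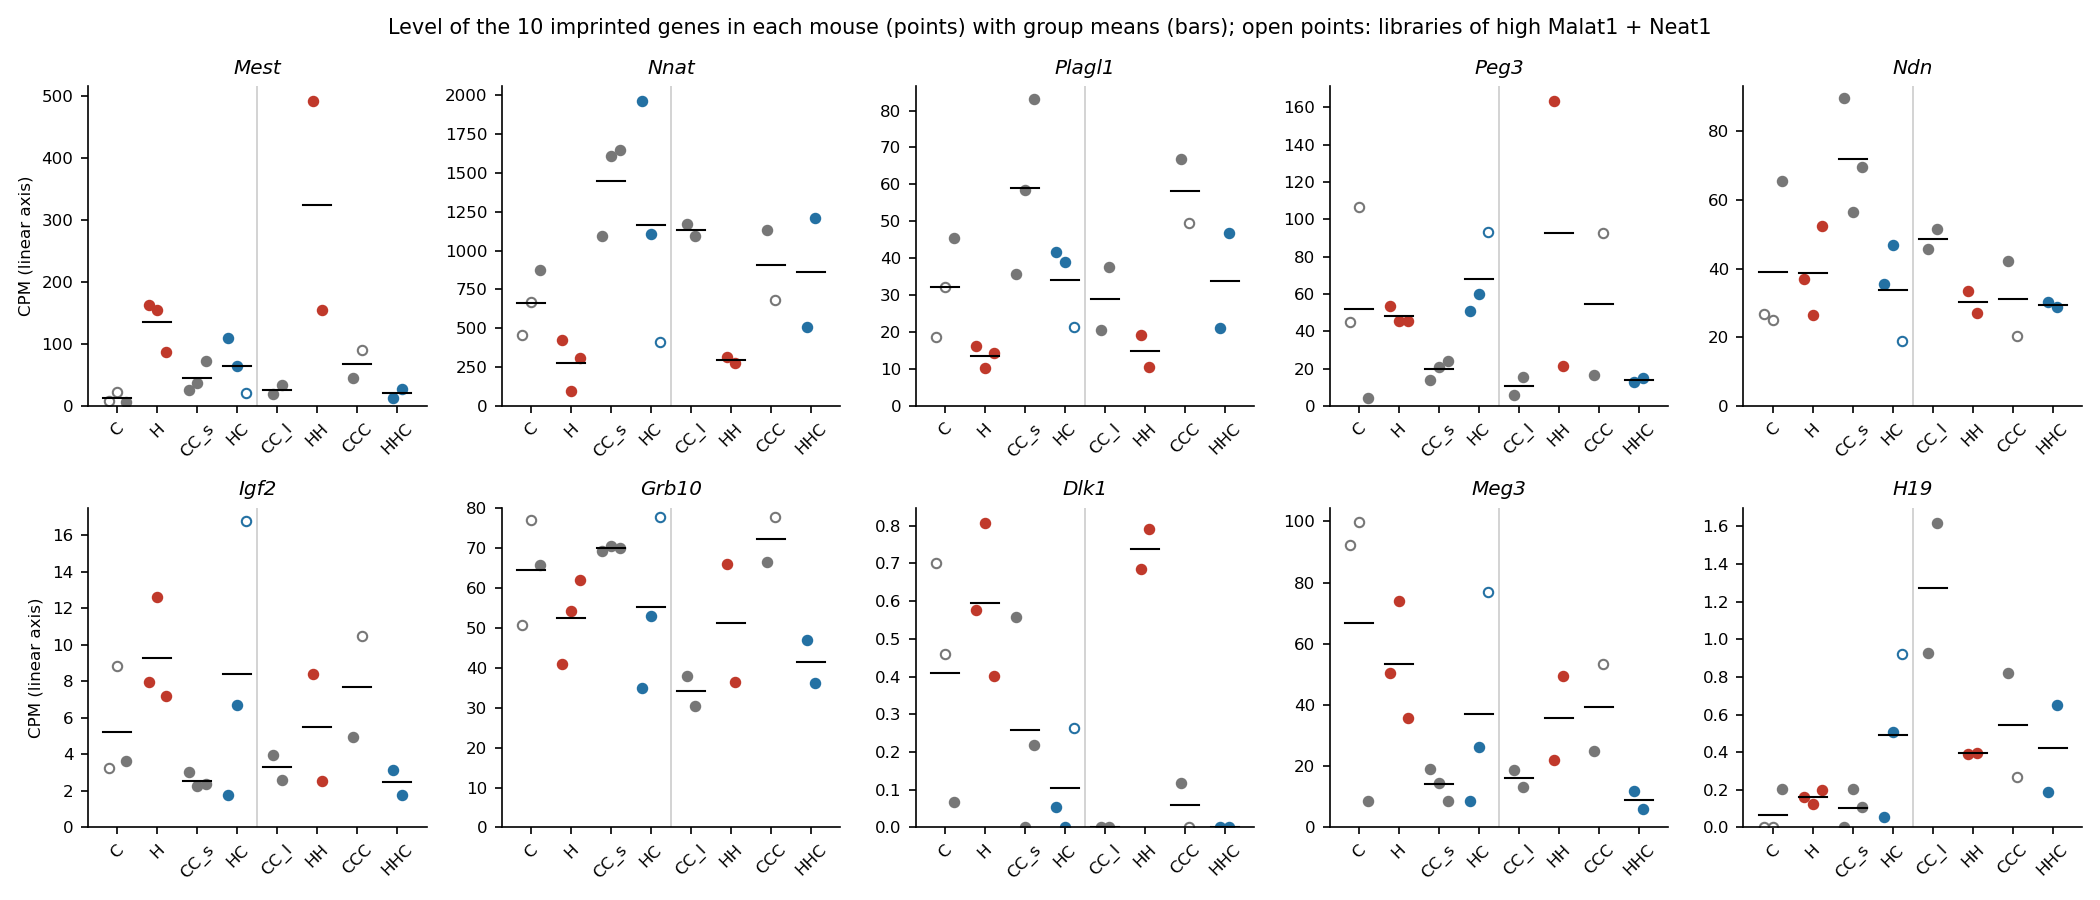
Level of each of the 10 genes in CPM (linear axis, each panel with its own scale) in every mouse, by group. Grey marks chow groups, red HFD and blue WL, bars are group means, the vertical line separates the short from the long arm, and open points are the 4 libraries of high Malat1 and Neat1. Mest lies between 86.8 and 492 CPM in the 5 mice on HFD and at or below 109 CPM in the other 15.

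Counted over the members, a change past the cut-offs was seen for 1 of 10 in H against C (Mest), where 6.49% of all genes tested passed. It was seen for 2 of 10 in HH against CC_l (Mest and Peg3), where 6.79% passed. In HC against CC_s 0 of 10 passed (1.74% of all genes), and in HHC against CCC 0 of 10 (3.12%). DESeq2 also called none of the 10 in either comparison after WL, and by edgeR the nominal p was under 0.05 for Igf2 and Ndn in HC and for Meg3 in HHC. At an adjusted p under 0.05 in edgeR, Mest was the member left in H (2.12% of all genes) and in HH (2.07%). DESeq2 left Mest and Plagl1 in H, among 2065 genes, and Mest and Peg3 in HH, among 2009 genes. At that threshold edgeR called no gene of the whole table in HC (0%) or HHC (0%), where 1866 and 2292 genes had a nominal p under 0.05 and DESeq2 called 273 and 455. Groups whose mice did not overlap in CPM were found for 3 members in H (24.1% of all genes), 2 in HC (13.6%), 8 in HH (56.3%) and 6 in HHC (27.9%), shares that groups of 2 mice often reach. All 6 in HHC were lower than in CCC, as were 21.4% of all genes. Mest, Peg3 and Meg3 were above their controls in HH and below them in HHC without overlap, as were 6.81% of all genes.

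**Figure D2:**
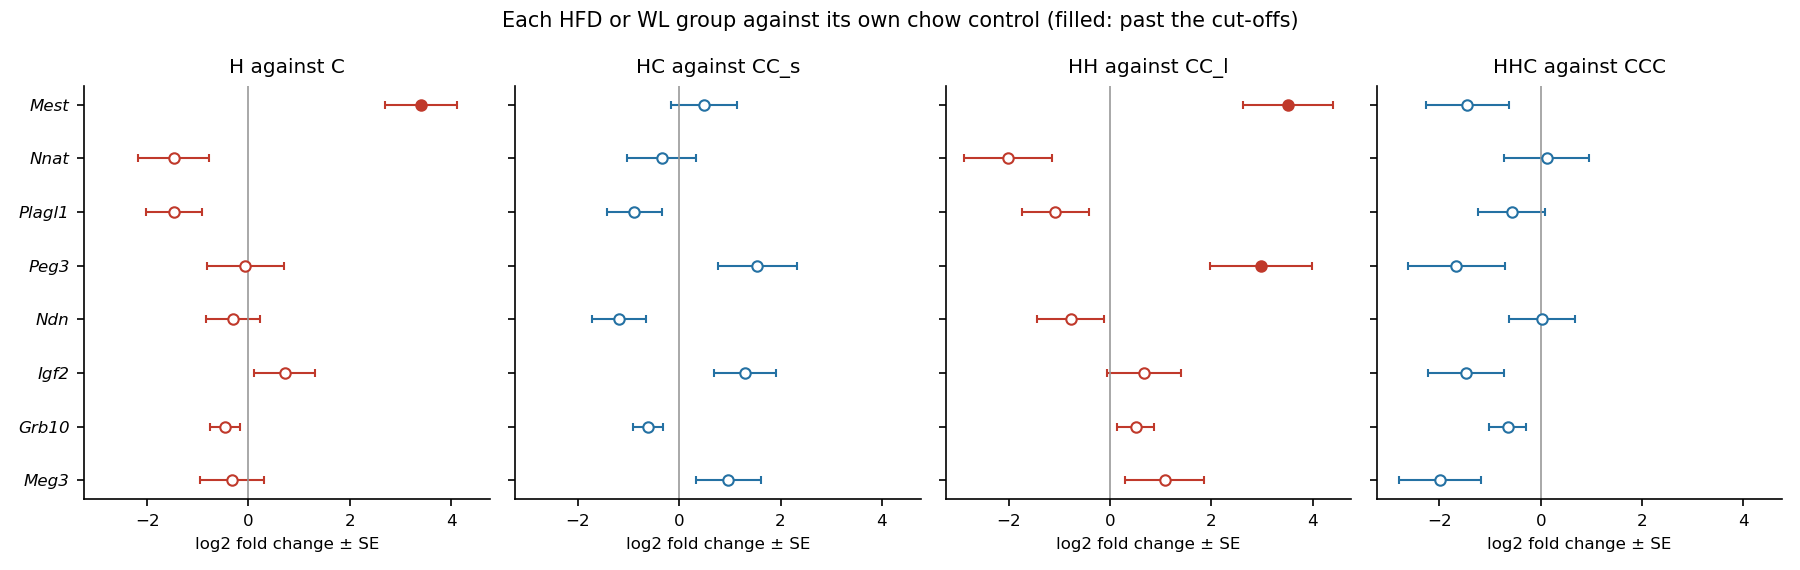
Log2 fold change with its standard error (edgeR) for the 8 members with enough counts, in each HFD (red) or WL (blue) group against its own chow control. Filled points passed the cut-offs, which were Mest in H and HH and Peg3 in HH. Dlk1 and H19 are left out because they lay near the limit of detection.

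Mest passed the cut-offs in H and HH, and Peg3 in HH alone, where its mean rested on 1 mouse. For Nnat and Plagl1 the H and HH mice all lay below their chow controls. The promoters of these 4 members are shown. Each is the 250 bases before a transcription start given by RefSeq (GRCm38.p6, the build of the deposited counts), written 5′ to 3′ on the strand of the gene, with CG dinucleotides, the dinucleotide at which DNA is methylated, in capitals. The sequences lie at chr6:30737803-30738052 (+) for Mest, chr7:6730420-6730669 (−) for Peg3, chr2:157559828-157560077 (+) for Nnat and chr10:13090582-13090831 (+) for Plagl1. In the Peg3 sequence the capitals also mark GGGGCCCC, a palindrome known as a binding element of Plagl1, searched as these letters, which read the same on both strands.
Mest: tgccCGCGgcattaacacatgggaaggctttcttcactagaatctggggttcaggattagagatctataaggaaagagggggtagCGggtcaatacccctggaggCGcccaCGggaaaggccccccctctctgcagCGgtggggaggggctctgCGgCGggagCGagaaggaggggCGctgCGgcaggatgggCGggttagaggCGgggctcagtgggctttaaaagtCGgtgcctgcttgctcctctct
Peg3: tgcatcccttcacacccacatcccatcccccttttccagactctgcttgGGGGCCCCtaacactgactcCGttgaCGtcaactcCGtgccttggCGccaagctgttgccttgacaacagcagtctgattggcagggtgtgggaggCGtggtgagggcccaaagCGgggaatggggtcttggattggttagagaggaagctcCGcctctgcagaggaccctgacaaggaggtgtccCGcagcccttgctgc
Nnat: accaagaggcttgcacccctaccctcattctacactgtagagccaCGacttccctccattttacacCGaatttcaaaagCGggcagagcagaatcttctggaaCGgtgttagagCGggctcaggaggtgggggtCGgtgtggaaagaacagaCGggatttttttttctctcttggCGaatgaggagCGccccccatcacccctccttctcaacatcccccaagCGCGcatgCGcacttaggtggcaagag
Plagl1: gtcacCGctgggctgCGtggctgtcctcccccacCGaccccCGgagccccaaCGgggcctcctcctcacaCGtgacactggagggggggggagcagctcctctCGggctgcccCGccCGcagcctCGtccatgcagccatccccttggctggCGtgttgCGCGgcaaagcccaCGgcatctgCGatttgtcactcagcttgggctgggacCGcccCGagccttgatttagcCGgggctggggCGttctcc
The Mest window held 14 CG, the Nnat window 12, the Plagl1 window 19 and the Peg3 window 8, against a median of 6 over 32851 RefSeq promoters of this length. RefSeq gives 3 starts for Mest, the window shown, another shifted by 3 bases with 14 CG, and one further upstream with 7 CG, a number reached by 46.3% of all promoters. At least as many CG were present in 29.4% of all promoters for the Mest window shown, 33.5% for Nnat, 19.7% for Plagl1 and 43% for Peg3. RefSeq promoters were listed for 9 of the 10 members, 16 in all, and GGGGCCCC was present in that of Peg3 alone among them and in 0.889% of all promoters. The widest difference in CG within a member was between starts of Grb10, with 40 and 8, and of Igf2, with 22 and 1. These matches describe the letters of the windows, and binding or methylation was not measured in these libraries.

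Mest (chromosome 6, 30723547 to 30748465, + strand, mm10) encodes a protein of the alpha/beta hydrolase fold that sits in the endoplasmic reticulum. In C mice it was at 8.11, 22.0 and 6.37 CPM, and in H mice at 163, 155 and 86.8 CPM. The lowest H mouse lay above the highest C mouse, and the group means were 135 ± 41.9 CPM in H and 12.2 ± 8.55 CPM in C (SD, n = 3 each). Mest rose by 3.41 ± 0.72 on the log2 scale (edgeR, adjusted p = 0.0203), and the adjusted p over the 13 alternatives ran from 4.58e-10 to 0.0997 (edgeR or DESeq2).

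In the long arm, Mest was at 19.2 and 33.2 CPM in CC_l mice and at 492 and 155 CPM in HH mice. Both HH mice lay above both controls, but they differed from each other more than 3-fold. The rise was 3.52 ± 0.88 on the log2 scale (edgeR, adjusted p = 0.0472). Without HH replicate 1 it was 2.46 and without CC_l replicate 1 it was 3.12 (edgeR, adjusted p = 0.423 and 0.452), both short of the cut-off on the nominal p, so that this call needed both of these mice. The effect of the longer HFD minus that of the shorter was 0.11 ± 1.04 on the log2 scale (edgeR, adjusted p = 1.00), an interval too wide to say that the diets acted alike, and diet length cannot be told apart from age and from whatever else differed between the arms.

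After WL, Mest was at 109, 64.3 and 20.7 CPM in HC mice and at 26.1, 37.4 and 72.8 CPM in CC_s mice. The groups overlapped, and the lowest HC value came from the library of high Malat1 and Neat1. The log2 difference of 0.49 ± 0.65 did not pass (edgeR, adjusted p = 0.862), and without that library and the other 3 it was 0.91 ± 0.54 (adjusted p = 0.818 by edgeR). In HHC mice Mest was at 13.4 and 27.5 CPM, below 45.7 and 89.6 CPM in CCC mice. The log2 difference was −1.45 ± 0.82 (edgeR, adjusted p = 0.549), and without CCC replicate 2 and the other 3 libraries −1.01 ± 0.72 (adjusted p = 1.00 by edgeR).

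The change in the Mest effect from HFD to WL was tested as an interaction. The HC effect minus the H effect was −2.91 ± 0.94 on the log2 scale (edgeR, adjusted p = 0.325). The HHC effect minus the HH effect was −4.97 ± 1.20 (edgeR, adjusted p = 0.0615), the smallest adjusted p of the 10 members and short of the threshold of 0.05. At that threshold edgeR called no gene for the short arm (0%, with 2538 genes at a nominal p under 0.05 and 432 called by DESeq2), 0.815% of genes for the long arm and none for the HH effect minus the H effect (0%, with 1242 and 34). None of the members was called by edgeR in any of the 3, whereas DESeq2 called Mest and Peg3 in the long arm, among 1199 genes.

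The control groups themselves differed for Mest, and between them age cannot be told apart from the change of chow. It was higher in the 26-week-old CC_s mice than in the 18-week-old C mice in all 3 mice, by 2.197 ± 0.68 on the log2 scale (edgeR, adjusted p = 0.393), the only member of the 10 past the cut-offs there by edgeR, where 2.45% of all genes passed. DESeq2 called 2 of the 10 at the cut-offs and 0 at an adjusted p under 0.05, where it called 691 genes. The edgeR call of Mest was lost without C replicate 1 (1.93), C replicate 3 (2.01) or CC_s replicate 3 (1.70). In the long arm, CCC against CC_l gave 1.19 ± 0.81 (edgeR, adjusted p = 0.589), and 0 of 10 members passed (2.66% of all genes, 2472 genes at a nominal p under 0.05, and 0 of the 10 by DESeq2). The H and CC_s comparisons share the C mice, so a low level in C enters both.

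The exons of Mest partly overlap those of another gene. Copg2, which encodes a subunit of the COPI vesicle coat and lies on the opposite strand, shares 912 bases with the exons of Mest, 23.1% of their length. The strand setting of the counting is not given in the sources used here, so reads in the shared stretch cannot be assigned to either gene. Copg2 was at 24.4, 34.0 and 17.4 CPM in H mice against 9.34, 12.7 and 6.65 CPM in C mice, and at 41.6 and 31.2 CPM in HH mice against 8.46 and 12.9 CPM in CC_l mice. All 5 HFD values lay above those of their controls, but the log2 differences of 1.28 ± 0.49 and 1.66 ± 0.60 did not pass (edgeR, adjusted p = 0.187 and 0.167). Klf14, the transcription factor gene next to Copg2, was at 20.2 to 28.1 CPM in H against 4.67 to 19.3 CPM in C, and its log2 difference in HH was 0.24 ± 0.95 (edgeR, adjusted p = 0.926). The row of Mir335, the microRNA gene in an intron of Mest, held between 0 and 4 counts per library.

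**Figure D3:**
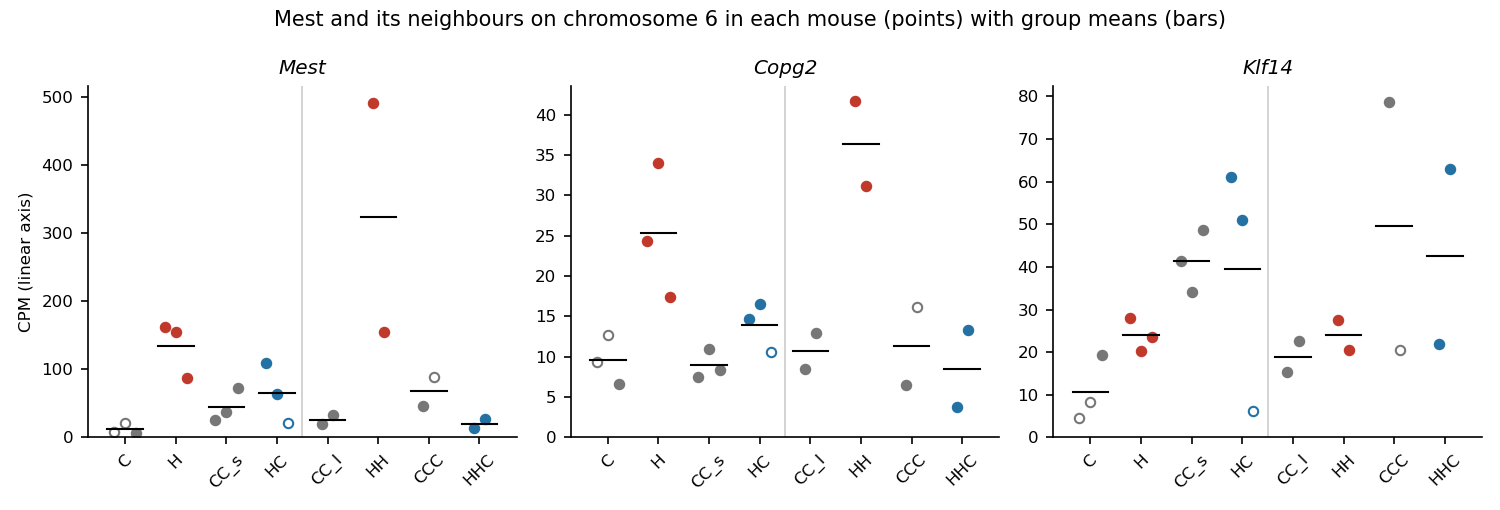
Mest, Copg2 and Klf14 in CPM (linear axis, each panel with its own scale) in every mouse, by group, with group means as bars, and open points for the 4 libraries of high Malat1 and Neat1. In H and HH the values of Mest and Copg2 all lie above those of their chow controls, whereas for Klf14 the HH and CC_l mice overlap.

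Peg3 (chromosome 7, 6703892 to 6730431, − strand) encodes a large zinc-finger protein expressed from the paternal copy. In CC_l mice it was at 6.04 and 15.6 CPM, and in HH mice at 163 and 21.3 CPM. Both HH mice were above both controls, and the mean of 92.4 ± 100.5 CPM (SD, n = 2) rested on 1 mouse. The rise of 2.98 ± 1.01 on the log2 scale passed the cut-offs (edgeR, adjusted p = 0.136). It was 0.86 without HH replicate 1 and 2.40 without CC_l replicate 1, neither past the cut-offs, and with the replicate number as a block it was 3.31 ± 1.19 and also short of them.

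In the short arm the Peg3 values of the controls were far apart, at 44.8, 106 and 4.45 CPM in C mice, the high ones from the libraries rich in Malat1 and Neat1. H mice were at 53.4, 45.8 and 45.8 CPM, inside that range, and the log2 difference was −0.07 ± 0.76 (edgeR, adjusted p = 0.986). Without the 4 libraries, which leaves C replicate 3 as the only C mouse, it was 3.04 ± 0.92 (edgeR, adjusted p = 0.0869). HC mice were at 50.7, 59.9 and 93.1 CPM, all above the CC_s mice at 13.95, 20.9 and 23.9 CPM. That difference of 1.54 ± 0.78 did not pass (edgeR, adjusted p = 0.581), and it was 1.45 ± 0.58 without the 4 libraries (adjusted p = 0.807 by edgeR). HHC mice were at 13.1 and 15.0 CPM and CCC mice at 16.3 and 92.7 CPM, the high one again from a library rich in Malat1 and Neat1. The log2 difference was −1.67 ± 0.96 with all libraries and −0.12 ± 0.80 without the 4 (edgeR, adjusted p = 0.556 and 1.00).

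Nnat, Plagl1 and Ndn had lower values on HFD in part of the comparisons. Nnat (chromosome 2, 157560078 to 157562522, + strand) encodes a small proteolipid of the endoplasmic reticulum and lies within an intron of Blcap. In H mice it was at 423, 96.1 and 308 CPM, all below the C mice at 456, 667 and 875 CPM. In HH mice it was at 318 and 278 CPM, below the CC_l mice at 1169 and 1091 CPM. The log2 differences of −1.48 ± 0.70 and −2.01 ± 0.87 did not pass the cut-offs (edgeR, adjusted p = 0.291 and 0.245), whereas DESeq2 called the one in HH with a log2 difference of −2.03. In edgeR the one in HH also passed with no low-count filter and with the compared groups alone, but not with RLE scaling, halved counts or the replicate block.

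After WL the Nnat values scattered. HC mice were at 1965, 1107 and 413 CPM and CC_s mice at 1093, 1607 and 1644 CPM, with the HC value below the range of the controls coming from the library of high Malat1 and Neat1. HHC mice were at 510 and 1210 CPM and CCC mice at 1134 and 682 CPM. Both pairs of groups overlapped, and the log2 differences were −0.35 ± 0.68 and 0.12 ± 0.84 (edgeR, adjusted p = 0.922 and 1.00). Blcap, the apoptosis-linked gene around Nnat, had log2 differences of −0.44 ± 0.37 in H and −1.01 ± 0.46 in HH (edgeR, adjusted p = 0.579 and 0.269).

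Plagl1 (chromosome 10, 13060504 to 13131694, + strand) encodes the zinc-finger transcription factor named above as a regulator of the network. It was at 16.3, 10.2 and 14.3 CPM in H mice and at 18.7, 32.2 and 45.5 CPM in C mice. In HH mice it was at 19.3 and 10.6 CPM, against 20.5 and 37.7 CPM in CC_l mice. Every HFD mouse lay below its controls, the nearest pairs differing by little. The log2 difference was −1.47 ± 0.55 in H (edgeR, adjusted p = 0.178) and −1.08 ± 0.67 in HH (adjusted p = 0.408). In H it passed the cut-offs by DESeq2 (−1.52), without C replicate 1 (−1.73) and without the 4 libraries (−2.13 ± 0.53 by edgeR, adjusted p = 0.0483).

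Plagl1 was at 41.7, 39.0 and 21.4 CPM in HC mice and at 35.6, 58.4 and 83.0 CPM in CC_s mice, overlapping groups with a log2 difference of −0.89 ± 0.54 (edgeR, adjusted p = 0.629). It was at 21.1 and 46.7 CPM in HHC mice, below 66.9 and 49.5 CPM in CCC mice, with a log2 difference of −0.57 ± 0.66 (edgeR, adjusted p = 0.798).

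Ndn (chromosome 7, 62346569 to 62350262, + strand) encodes necdin, a growth suppressor of the Prader–Willi region. It was at 35.6, 46.8 and 18.8 CPM in HC mice, all below the CC_s mice at 89.6, 56.5 and 69.5 CPM. The log2 difference of −1.19 ± 0.54 did not pass (edgeR, adjusted p = 0.571). It was at 33.4 and 27.1 CPM in HH mice against 45.6 and 51.4 CPM in CC_l mice, a log2 difference of −0.78 ± 0.66 (edgeR, adjusted p = 0.561). In H mice it was at 37.1, 26.5 and 52.3 CPM, within the range of 26.7, 25.1 and 65.6 CPM in C mice, and in HHC mice at 30.3 and 28.7 CPM, within that of 42.2 and 20.3 CPM in CCC mice.

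The growth factor gene Igf2 (chromosome 7, 142650766 to 142666816, − strand) was low in all groups. It was at 3.27, 8.86 and 3.63 CPM in C, 7.97, 12.6 and 7.23 CPM in H, 3.01, 2.27 and 2.40 CPM in CC_s, and 1.80, 6.70 and 16.8 CPM in HC. In the long arm it was at 3.98 and 2.61 CPM in CC_l, 8.41 and 2.57 CPM in HH, 4.94 and 10.5 CPM in CCC, and 3.17 and 1.77 CPM in HHC. The highest value of its group came in C, HC and CCC from a library of high Malat1 and Neat1, and only the HHC and CCC mice did not overlap. The log2 differences of 0.71 ± 0.60 in H, 1.30 ± 0.61 in HC, 0.67 ± 0.74 in HH and −1.47 ± 0.75 in HHC did not pass (edgeR, adjusted p from 0.504 to 0.672), but without HC replicate 1 the one in HC was 1.73 and past the cut-offs. In the GENCODE vM21 annotation, 62.8% of the exon length of Igf2 is shared with the gene Gm49394 on the same strand, which has no row in the table of counts.

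Grb10 (chromosome 11, 11930508 to 12038683, − strand) encodes an adaptor that binds the insulin and IGF1 receptors and dampens their signal. Its values stayed within 30.4 to 77.7 CPM over all 20 mice. It was at 40.9, 54.3 and 62.0 CPM in H against 50.7, 77.1 and 65.7 CPM in C, and at 65.9 and 36.4 CPM in HH against 37.9 and 30.4 CPM in CC_l, groups that overlapped. In HC it was at 34.9, 52.9 and 77.7 CPM against 69.2, 70.4 and 70.1 CPM in CC_s, and in HHC at 46.9 and 36.1 CPM against 66.6 and 77.6 CPM in CCC. The HHC mice lay below the CCC mice, with a log2 difference of −0.65 ± 0.36, and the others were −0.47 ± 0.30 in H, −0.61 ± 0.30 in HC and 0.51 ± 0.36 in HH. None passed (edgeR, adjusted p from 0.442 to 0.572).

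Meg3 (chromosome 12, 109541001 to 109571726, + strand) is a long noncoding RNA from the maternal copy of the Dlk1–Dio3 domain, and it is largely kept in the nucleus. It was at 92.2, 99.9 and 8.70 CPM in C mice, 50.5, 74.0 and 35.7 CPM in H mice, 18.98, 14.7 and 8.52 CPM in CC_s mice and 8.49, 26.2 and 76.8 CPM in HC mice. In C and HC the values of 76.8 CPM and above came from the libraries of high Malat1 and Neat1. In the long arm it was at 18.7 and 13.3 CPM in CC_l mice, 22.0 and 49.5 CPM in HH mice, 25.0 and 53.4 CPM in CCC mice and 12.0 and 5.88 CPM in HHC mice. HH mice lay above and HHC mice below their controls. The log2 differences were −0.33 ± 0.63 in H, 0.97 ± 0.64 in HC, 1.08 ± 0.78 in HH and −1.98 ± 0.81 in HHC (edgeR, adjusted p = 0.833, 0.663, 0.485 and 0.391). Without the 4 libraries the difference in H was 2.21 ± 0.74 and that in HHC −1.46 ± 0.66 (edgeR, adjusted p = 0.114 and 1.00).

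Across the 20 libraries, log2 CPM of Meg3 had a Pearson r of 0.65 with the log2 sum of Malat1 and Neat1, the highest of the 10 members, followed by Grb10 (0.45), Igf2 (0.44) and Peg3 (0.39), whereas Mest had −0.39 and Ndn −0.49. With the progenitor marker sum the r was 0.71 for the scarcely detected Dlk1, 0.65 for Meg3, 0.61 for Mest, 0.60 for Igf2, 0.58 for Peg3, −0.60 for Ndn, −0.70 for Plagl1 and −0.87 for Nnat. With the macrophage sum it was 0.59 for Mest and −0.77 for Nnat. These values describe 20 libraries that share groups, depth and composition.

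**Figure D4:**
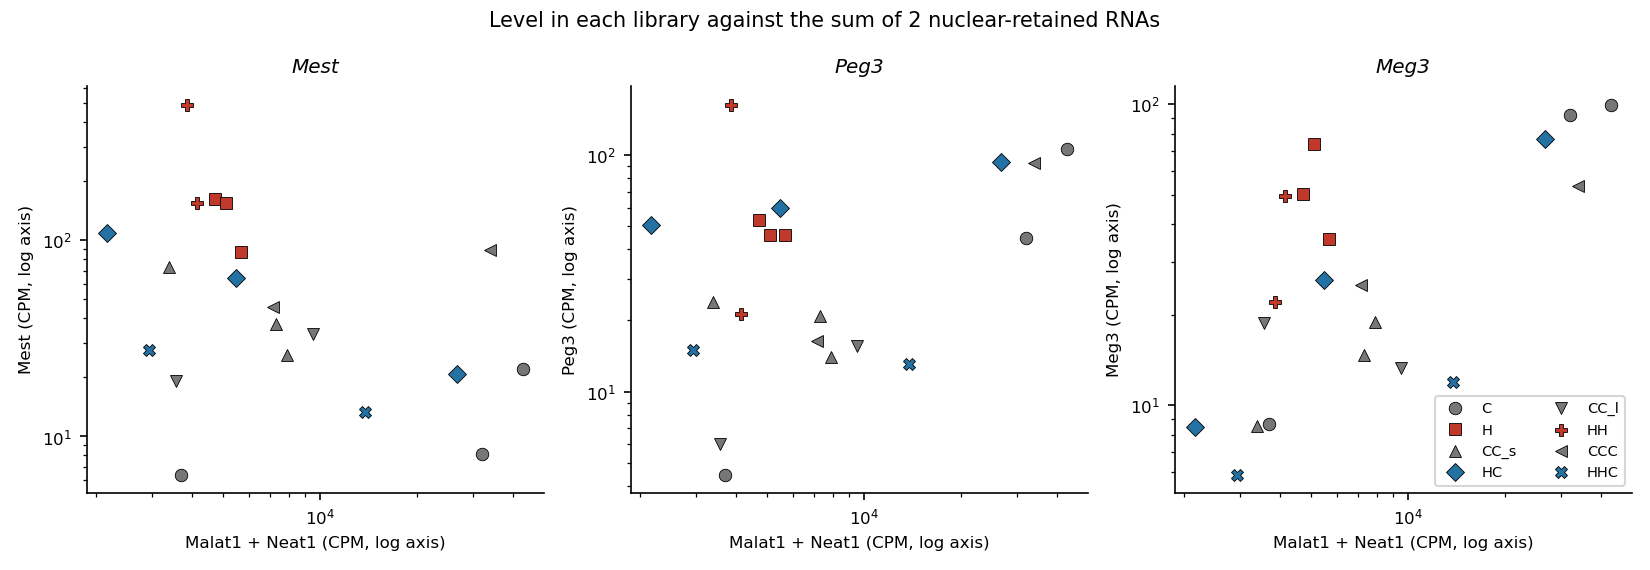
Mest, Peg3 and Meg3 (CPM, log axis) in each of the 20 libraries against the sum of Malat1 and Neat1 (CPM, log axis), with a symbol per group (grey chow, red HFD, blue WL). The 4 libraries with sums of 26717 CPM and above hold Meg3 at 53.4 to 99.9 CPM, Peg3 at 44.8 to 106 CPM and Mest at 8.11 to 89.6 CPM.

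Dlk1 and H19 were near the limit of detection. Dlk1 (chromosome 12, 109452823 to 109463336, + strand), the progenitor inhibitor named above, was at 0.401 to 0.807 CPM in H mice and at 0.0685 to 0.700 CPM in C mice. It had 14 and 16 counts (0.684 and 0.790 CPM) in HH mice and no count in CC_l mice. With the controls set to 3 counts per library, it was 5.15-fold higher in HH. All counts of Dlk1 were even, and if both reads of a pair were counted, the limit would be higher and this ratio lower. After WL Dlk1 had at most 4 counts in HC mice and none in HHC mice. H19 (chromosome 7, 142575529 to 142578143, − strand), the noncoding RNA of the maternal Igf2 domain, was at 0.929 and 1.62 CPM in CC_l mice and at or below 0.921 CPM in all other mice, with 0.391 and 0.395 CPM in HH mice. These counts cover counting error only and were too few for a fold change of H19 to be given.

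Leaving out the 4 libraries of high Malat1 and Neat1, a choice made after the data had been seen, raised the number of members called in H more than any other alternative. Mest, Nnat, Peg3, Plagl1 and Meg3 then passed the cut-offs, 5 of 10 against 8.51% of all genes tested, with Mest at 4.00 ± 0.91 and Nnat at −2.05 ± 0.65 on the log2 scale (edgeR, adjusted p = 0.0406 and 0.0989). The C group is a single mouse there, assumed to vary like the others, and the median log2 difference over all genes moved from −0.15 to 0.31. In HC and HHC still 0 of 10 passed, against 1.05% and 0.964% of all genes.

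Of the further genes described with the network, 8 of 9 were tested, and none passed the cut-offs in H (6.49% of all genes), 1 in HC (1.74%), 3 in HH (6.79%) and none in HHC (3.12%). The median log2 difference of these 8 was 0.01 in H, 0.30 in HC, 1.00 in HH and −0.04 in HHC, against −0.15, 0.27, −0.23 and −0.06 over all genes. In HH, Dcn (decorin, a matrix proteoglycan also made by fibroblasts and progenitors) rose by 2.93 ± 0.74 from 338 to 476 CPM in CC_l to 2576 to 4122 CPM (edgeR, adjusted p = 0.0486). Igf2r, the receptor that clears IGF2, rose by 2.49 ± 0.69 from 16.5 to 20.5 CPM to 91.7 to 130.1 CPM (edgeR, adjusted p = 0.0684). Cdkn1c, the cell-cycle inhibitor p57, fell by 2.02 ± 0.53 on the log2 scale from 30.3 to 59.0 CPM to 10.5 to 13.4 CPM (edgeR, adjusted p = 0.0555). Cdkn1c was also past the cut-offs after WL in the short arm, at 20.8 to 34.2 CPM in HC against 38.5 to 66.1 CPM in CC_s, where it fell by 1.25 ± 0.42 (edgeR, adjusted p = 0.536).

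Of the neighbours of the members in their clusters, 11 of 15 were tested. None passed in H (6.49% of all genes), HC (1.74%) or HH (6.79%), and 1 passed in HHC (3.12%). The 3 with the highest level per length were Blcap, the splicing protein gene Snrpn and the ubiquitin ligase gene Ube3a, at medians of 44.1, 16.4 and 12.8 RPKM. The gene past the cut-offs in HHC was Mirg, a microRNA host transcript of the Meg3 cluster (edgeR, adjusted p = 0.290). Mirg had 0 counts in both HHC mice and 1.21 and 2.00 CPM in the CCC mice. Rian, another noncoding RNA of that cluster, was at 0.746 to 2.61 CPM in HHC and 2.53 to 7.25 CPM in CCC (edgeR, adjusted p = 0.569).

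Among imprinted genes outside these lists, 26 of 29 were tested, and 5 passed in H (6.49% of all genes), none in HC (1.74%), 2 in HH (6.79%) and 2 in HHC (3.12%). Cd81, a tetraspanin present on many cell types, rose from 120.0 to 188 CPM in C to 475 to 866 CPM in H and from 216 to 247 CPM in CC_l to 811 to 1215 CPM in HH. The changes were 1.97 ± 0.40 and 2.05 ± 0.49 on the log2 scale (edgeR, adjusted p = 0.0167 and 0.0404). In H, Slc22a2, an organic cation transporter, rose by 4.20 ± 0.84 from 0.115 to 0.233 CPM to 2.81 to 4.68 CPM (edgeR, adjusted p = 0.0153). Zrsr1 (a splicing factor), Slc22a18 (a transporter) and Ppp1r9a (neurabin, an actin-binding protein) fell there. The falls were 1.29 ± 0.42, 1.66 ± 0.51 and 1.45 ± 0.37 on the log2 scale (edgeR, adjusted p = 0.127, 0.102 and 0.0497). For Ppp1r9a the groups overlapped, at 20.4 to 31.4 CPM in H against 28.5 to 95.1 CPM in C. In HH, Pon2, a lactonase, rose by 1.31 ± 0.38 (edgeR, adjusted p = 0.0831). In HHC the noncoding RNA Airn fell by 2.16 ± 0.73 and Kcnq1ot1 fell by 3.37 ± 1.03 (edgeR, adjusted p = 0.304 and 0.276). Kcnq1ot1 was at 10.9 and 42.8 CPM there, against 90.4 and 532 CPM in CCC, the highest value being from the library of high Malat1 and Neat1. The median log2 difference of the 26 was −0.27 in H, 0.14 in HC, −0.10 in HH and −0.24 in HHC. Nap1l4 and Pon3, which after Cd81 had the highest levels per length, did not pass anywhere.

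**Figure D5:**
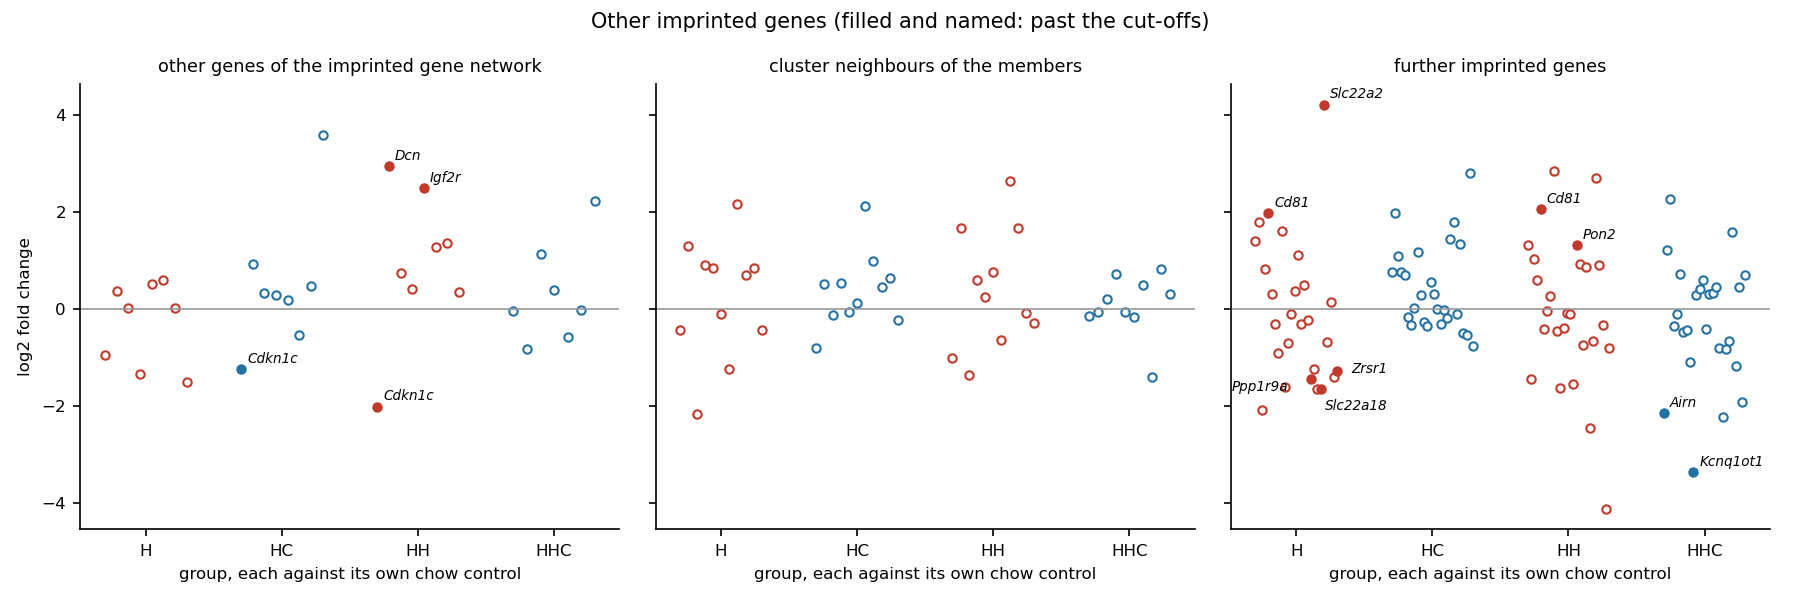
Log2 fold change (edgeR) of the tested genes of 3 lists in each HFD (red) or WL (blue) group against its own chow control. The lists hold other genes of the network, cluster neighbours of the members and further imprinted genes. Each point is a gene, filled and named where it passed the cut-offs, and genes with no count in all mice of a group are left out of that comparison. Mirg in HHC, which passed, is left out for this reason. Cd81 passed in both H and HH, and no gene of the middle list passed in H, HC or HH.

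Mest is often grouped with genes that track the size of the fat depot, and these were read beside it. Lep (leptin) rose in H by 2.02 ± 0.66 from 479 to 1647 CPM to 4345 to 5473 CPM, and Sfrp5, a secreted Wnt inhibitor, by 3.13 ± 0.49 from 20.5 to 29.5 CPM to 171 to 279 CPM (edgeR, adjusted p = 0.125 and 0.005). In HH it was Bmp3, a growth factor of the BMP family, that passed, with 1.94 ± 0.59 (edgeR, adjusted p = 0.101). Npr3, the natriuretic peptide clearance receptor, was at 546 to 637 CPM in H against 271 to 333 CPM in C and did not pass (edgeR, adjusted p = 0.304). None of the 4 passed in HC or HHC. In HHC, Sfrp5 was at 159 to 171 CPM against 68.1 to 69.2 CPM in CCC, with a log2 difference of 1.44 ± 0.57 (edgeR, adjusted p = 0.378).

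Of 10 partners of Igf2 in the IGF axis, all tested, 1 passed in HH (6.79% of all genes) and 1 in HHC (3.12%). The IGF-binding protein gene Igfbp3 rose in HH by 2.76 ± 0.79 from 4.23 to 7.89 CPM to 24.3 to 61.2 CPM, and Igfbp2 fell in HHC by 2.80 ± 0.96 from 2.59 to 22.5 CPM to 0.934 to 1.87 CPM (edgeR, adjusted p = 0.0783 and 0.318). Igf1, Igfbp4 and Igfbp5 had the highest levels per length, at medians of 44.99, 135 and 35.02 RPKM, and passed in no comparison. The median log2 difference of the 10 was 0.02 in H, 0.14 in HC, 0.01 in HH and −0.58 in HHC, or −0.23 there with genes at 0 set to their limit.

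Over the 20 libraries, after subtracting the mean of each arm, the genes whose log2 CPM followed Mest most closely among 15768 with a mean of at least 1 CPM were Plp2 (Pearson r = 0.951), Trp53 (0.905), Rsu1 (0.890), Armcx3 (0.888) and Cd81 (0.886). They were ranked on the same mice in which Mest varied, so their values are a description. Plp2, a proteolipid membrane protein gene, was at 15.96 to 25.2 CPM in H against 1.58 to 5.12 CPM in C, 28.7 to 47.9 CPM in HH against 7.80 to 9.71 CPM in CC_l, and 6.26 to 11.8 CPM in HHC against 14.2 to 15.0 CPM in CCC. The order held in part in the short arm alone, where r was 0.962 for Plp2 and 0.852 for Cd81. Among the members themselves, Peg3 came closest to Mest (0.57), followed by Dlk1 (0.36) and Igf2 (0.22). The r was 0.05 for Meg3, 0.00 for Ndn, −0.02 for H19, −0.06 for Grb10, −0.15 for Plagl1 and −0.21 for Nnat, and over the short arm alone it was 0.33 for Peg3.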

How the data were processed

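TRAP–seq counts of 20 mice in 8 groups were used. Per the labels and the study's methods, the authors trimmed reads with Trim Galore 0.6.6, aligned them to mm10 with HISAT2 2.2.1, counted them on genes with featureCounts (Subread 2.0.1) and deposited whole-number counts without normalization. The annotation, strand setting and handling of read pairs are not given in the sources used here, and 74.4% to 89.2% of the nonzero counts per library were even. Symbols (for 45143 of 46078 genes), exon lengths and overlaps came from GENCODE vM21.

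From the deposited counts, CPM, RPKM and log2 fold changes were computed. The quasi-likelihood test of edgeR 4.0.16 (R 4.3.3) was fitted to the 8 groups after filterByExpr and TMM scaling. Adjusted p-values are Benjamini–Hochberg values over all genes of a comparison, and differences between effects were called at 0.05. The limit of detection was 3 counts per library, which covers counting error only and would be higher if both reads of a pair were counted. Likeness to Mest used log2 CPM with a prior count of 2, other correlations log2(CPM + 0.5). Procedures were tested on simulated data.

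The members and lists were chosen with earlier results of these data known. Beside the members, genes were named that passed in a diet comparison, had one of the 3 highest levels per length of a list, were among the 5 most like Mest or shared the Mest locus. Rian was added after its values had been seen. Alternatives were DESeq2 1.42.0, RLE scaling, no low-count filter, the compared groups alone, a replicate block, halved counts, an adjusted p threshold, other lengths and centring, and leaving out each mouse. Leaving out 4 libraries and crossing the replicate numbers were choices made once the data had been seen.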

Additional observations from a re-analysis of the deposited data

Results flagged for a closer look

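In 3 of the members, every HH mouse lay above the CC_l mice while every HHC mouse lay below the CCC mice, so the direction of the difference from chow was opposite in the HFD and the WL group of the long arm. The HHC effect minus the HH effect was −4.97 on the log2 scale for Mest (edgeR, adjusted p = 0.0615). It was −4.65 for Peg3 (edgeR, adjusted p = 0.114) and −3.06 for Meg3 (edgeR, adjusted p = 0.195). None of the 3 passed an adjusted p of 0.05 in edgeR with all libraries and the low-count filter, whereas DESeq2 called Mest and Peg3, among 1199 genes. With no filter on low counts all 3 passed it (edgeR, adjusted p = 8.86e-08 for Mest, 3.37e-07 for Peg3 and 0.00285 for Meg3). For Mest the difference was then −5.05, near that with the filter, while its SE went from 1.20 to 0.79. The joint pattern was seen in 6.81% of all genes tested. Leaving out 1 mouse at a time, the difference ran from −5.65 to −2.53 for Peg3, the latter without HH replicate 1, and from −3.55 to −2.40 for Meg3. The HH and HHC comparisons have no mice in common. The values of CCC replicate 2, 89.6 CPM for Mest, 92.7 CPM for Peg3 and 53.4 CPM for Meg3, came from a library with 33755 CPM of Malat1 and Neat1. Without the libraries of high Malat1 and Neat1, which leaves a single CCC mouse, Peg3 in HHC against CCC was at −0.12 on the log2 scale, against −1.67 with all libraries. Mest was then at −1.01 and Meg3 at −1.46, against −1.45 and −1.98. The part of nuclear RNA in these differences was not tested.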

How the results depend on the processing

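Mest kept its direction in H against C and HH against CC_l, and the call in H, under every alternative run. Under DESeq2, 2 members were called in H and 4 in HH. In HH the adjusted p threshold left 1 member by edgeR (Mest) and 2 by DESeq2 (Mest and Peg3). By edgeR, 2 were called in H with RLE normalization and 2 with no filter on low counts. Without the 4 libraries of high nuclear-retained RNA, which leaves a single C mouse, edgeR called 5 in H. In HC, 3 were called with no filter (1764 of 34443 genes) and 1 when the other groups were left out of the fit (243 of 16034). In HHC, 3 were called with no filter (1266 of 34443 genes), where Mest was at −1.41. With no filter the HC effect minus the H effect of Mest was −2.84 and the HHC effect minus the HH effect −5.05, both past the threshold, as was −4.87 by DESeq2. The SE with no filter was 0.62 and 0.79, against 0.94 and 1.20 with the filter. The replicate numbers mark no shared batch in the labels, and same-numbered mice deviated from their group means with correlations of −0.167 to 0.192 in H and C and −0.277 to 0.059 in HC and CC_s, so they share only a number. The replicate block left 1 member called in HH (Mest at 3.68, with 1040 of 21464 genes called) and turned Peg3 in H to 0.15. With correlations of −0.193 and −0.260 in the groups of 2, the crossed pairing was also fitted, and it called 2 members in HH and 0 in HHC (1073 and 382 of all genes).

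Without the 4 libraries, the sign turned for Peg3 (3.04) and Meg3 (2.21) in H, Nnat in HC (0.0616) and HHC (−0.24), Ndn in HHC (−0.43) and the HH effect minus the H effect of Mest (−0.48). Leaving out 1 mouse at a time, Mest ran from −0.29 to 0.99 in HC, 2.46 to 4.15 in HH, −2.32 (without HHC replicate 2) to −0.92 (without HHC replicate 1) in HHC, 1.70 to 2.74 in CC_s against C, −5.86 to −3.91 for the HHC effect minus the HH effect and −0.96 to 0.73 for the HH effect minus the H effect. Nnat ran from −1.14 to 0.12 in HC and −0.90 to 0.73 in HHC, Peg3 from −0.59 to 0.90 in H, Igf2 from −0.42 to 1.31 in HH, Plagl1 from −1.57 to −0.42 in HH and −1.52 to −0.0134 in HHC (the last without HHC replicate 1), Peg3 from −2.39 to −0.20 in HHC (the last without CCC replicate 2), and Ndn from −0.63 to 0.62 in H and −0.51 to 0.86 in HHC. The number called ran from 1 to 2 in H and 0 to 1 in HC. Over all genes it ran from 757 to 1816 in H and from 160 to 597 in HC. In HH the calls of Mest and Peg3 depended on single mice, as given above. The causes were not tested. Groups of 2 or 3 mice limit all comparisons, and for H19 and Dlk1 so do the low counts.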

Other observations

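Markers of tissues next to the depot stood out in single libraries in which the members were also read. The 6 spermatid genes summed to 3542 CPM in CC_l replicate 1 and 599 CPM in HC replicate 3. The 7 epididymal epithelium genes summed to 1950 CPM in C replicate 1 and 1672 CPM in H replicate 2. In CC_l replicate 1, Mest was at 19.2 CPM and Peg3 at 6.04 CPM, and in H replicate 2 Nnat was at 96.1 CPM, its lowest value in any library. The 5 endothelial markers summed to 1222 to 1820 CPM in H against 182 to 724 CPM in C, the 4 lipid-associated macrophage markers to 200.2 to 1116 CPM against 35.1 to 134 CPM, and the 5 mesothelial markers to 49.9 to 58.5 CPM against 46.7 to 294 CPM. The 5 lymphocyte markers stayed at or below 102 CPM and the 3 erythrocyte markers between 260 and 3697 CPM in all libraries.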
